A study of Mus musculus with 16 samples.

Results

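The genes described here are the mouse receptors for serotonin, noradrenaline and adrenaline, dopamine, acetylcholine (the muscarinic receptors) and histamine. They were chosen by their symbols (Htr, Adra, Adrb, Drd, Chrm and Hrh) and by being protein-coding, which gave 37 of the 56748 genes in the count table. The rule itself used none of their values, but it was set with earlier results of these data known. They comprise 14 serotonin, 6 alpha-adrenergic, 3 beta-adrenergic, 5 dopamine, 5 muscarinic and 4 histamine receptor genes.

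These receptors carry the signals by which nerve endings, enterochromaffin cells and mast cells act on the gut wall. Nearly all are G protein-coupled receptors. The serotonin receptors Htr3a and Htr3b are the exception, since their products are subunits of a ligand-gated cation channel that excites neurons directly. In the colon, muscarinic receptors on smooth muscle mediate contraction to acetylcholine released by myenteric motor neurons, beta-adrenergic receptors mediate relaxation, and many of the serotonin, dopamine and alpha-2 adrenergic receptors are known from the neurons themselves, where they adjust transmitter release. A gut segment without ganglia lacks the cell bodies in which the neuronal receptors are made.

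The study compared mice that lack the endothelin receptor B, a model of Hirschsprung disease (HSCR), with their wildtype (WT) littermates. HSCR mice were homozygous for the disrupted Ednrb tm1Ywa allele (Ednrb -/-), WT mice were Ednrb +/+, and all came from heterozygous parents of a hybrid C57BL6/J-129Sv background and were 2 to 4 weeks old. RNA came from the longitudinal muscle and myenteric plexus (LMMP), a microdissected layer in which neurons are a minority beside muscle, in the proximal colon, which keeps ganglia in HSCR mice, and in the distal colon, which is the affected segment described as aganglionic in this model. Each of the 4 groups (WT proximal, HSCR proximal, WT distal and HSCR distal) had 4 libraries. The gene is disrupted in every cell of the HSCR mice, so the model does not separate loss of the receptor in neural precursors from its loss elsewhere. The segment was taken from the sample titles, because the tissue entry names the proximal colon for all 16 libraries. Which libraries came from the same mouse is not given in the sources used here, and the p-values measure only the spread between these libraries.

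Upstream sequences are shown for 3 receptors, Htr3b and Drd2, known from nerve, and Chrm3, known from muscle. These sequences were chosen for having enough bases outside annotated exons. They are RefSeq promoter windows (table build GRCm38.p6) placed on GRCm39 by an exact and unique match, without the bases that lie in annotated exons. Capitals mark the GC box, GGGCGG on either strand.
Htr3b, chr9:48876364-48876540, minus strand: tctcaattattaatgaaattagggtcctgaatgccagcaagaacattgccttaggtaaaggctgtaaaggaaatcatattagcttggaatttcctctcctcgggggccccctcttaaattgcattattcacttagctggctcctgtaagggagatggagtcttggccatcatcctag
Drd2, chr9:49251453-49251653, plus strand: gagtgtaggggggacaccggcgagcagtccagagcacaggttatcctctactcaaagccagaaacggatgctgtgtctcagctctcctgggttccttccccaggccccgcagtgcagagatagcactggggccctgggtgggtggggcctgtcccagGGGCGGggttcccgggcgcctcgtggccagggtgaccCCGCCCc
Chrm3, chr13:10410884-10411089, minus strand: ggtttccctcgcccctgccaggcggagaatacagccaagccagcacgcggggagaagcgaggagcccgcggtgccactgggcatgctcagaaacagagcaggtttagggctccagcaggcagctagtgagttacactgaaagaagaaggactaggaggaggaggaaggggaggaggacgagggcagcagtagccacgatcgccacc
The Drd2 stretch is 67.66% G and C and holds 2 GC boxes, the Chrm3 stretch is 62.14% G and C with none, and the Htr3b stretch is 43.5% G and C with none. Of the 37 receptors, 28 had an entry in the table. In the 250 bases before the start, a GC box was found in 17 of these 28 genes and in 32.75% of all 32841 promoters. For this and the next motifs a gene counted if any of its promoters held the motif. The share of all was taken per promoter, so the counts and shares are not on the same footing. An E-box (CANNTG) was found in 11 of the 28 and in 66.23% of all promoters. A TATA box (TATAAA) was found in 1, Adra2a, against 12.37% of all, and the CArG box of muscle genes in 0 of 28 against 1.468% of all. None of the 3 stretches printed holds an E-box, a TATA box or a CArG box.

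The libraries held 21384372 to 45831881 counts, of which mitochondrial genes took 4.32% to 49.8%, and the receptors together held 1496 to 30359 counts. Ednrb, counted over the whole gene so that the disrupted part is not separated, stood at 33.9 to 67.7 CPM (counts scaled to a common library size) in WT proximal and 7.84 to 36.2 in HSCR proximal colon, at 12.2 to 40.2 in WT distal colon and at 5.54 to 9.56 in 3 HSCR distal libraries. The library labelled HSCR distal 1 had 97.0 CPM of Ednrb, the highest of all 16. Hoxd13, a gene of the hindmost gut, stood at 0.904 to 23.9 CPM in WT proximal and 112 to 201 CPM in WT distal libraries. It stood at 125 CPM in the library labelled HSCR proximal 1 and at 0.629 CPM in the library labelled HSCR distal 1, each against its segment. HSCR distal 4 had 14.1 CPM, also within the WT proximal range. The library HSCR proximal 2 stood apart in tissue makeup, with the lowest mean of 11 smooth muscle genes (7.29 log2 CPM against 10.01 to 11.6 in the other 15 libraries) and the highest mean of 12 epithelium genes (9.26). Results are given with all libraries and, where they rest on these, without them. The libraries in doubt that are left out together are those labelled HSCR proximal 1 and HSCR distal 1. HSCR distal 4 was kept in that setting.

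The level of the neuron genes differed widely inside each group. The mean log2 CPM of 17 enteric neuron genes ran from 5.21 to 7.75 in WT proximal, 2.44 to 6.47 in HSCR proximal, 2.33 to 7.10 in WT distal and -0.06 to 6.34 in HSCR distal colon, where the highest value was that of the library labelled HSCR distal 1. Fewer neurons in a piece of tissue and less RNA per neuron cannot be told apart in such bulk libraries. Libraries 1 and 2 of each group carry one style of library name and libraries 3 and 4 another. Receptor differences are therefore also given within each of these series as differences of mean log2 CPM.

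All 37 receptors had at least 1 count, 12 had a count in all 16 libraries, and 15 had a mean under 0.5 CPM. Levels between receptors are compared on the deposited FPKM scale, which takes account of gene length. In WT proximal colon the highest were Htr3a at 36.2 ± 36.3 FPKM (SD, n = 4), Chrm2 at 15.0 ± 8.98 and Htr2b at 12.9 ± 7.85, and the order of these neighbours is within their spread. Htr3a also led in WT distal colon at 36.7 ± 39.3 FPKM, ahead of Chrm2 at 22.3 ± 17.4. This lead came from libraries 3 and 4, since Chrm2 exceeded Htr3a in WT distal 1 (7.88 against 1.04 FPKM) and WT distal 2 (7.04 against 5.03 FPKM), and also in WT proximal 1 (6.25 against 3.03 FPKM). In the HSCR groups Chrm2 led, with 16.2 ± 13.0 FPKM in proximal and 29.4 ± 17.3 FPKM in distal colon, and Htr3a came sixth in HSCR distal colon at 1.89 ± 1.88 FPKM. The map of receptor levels shows this split between rows that stay bright across libraries, such as Chrm2, and rows that darken in some of them.

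**Figure D1:**
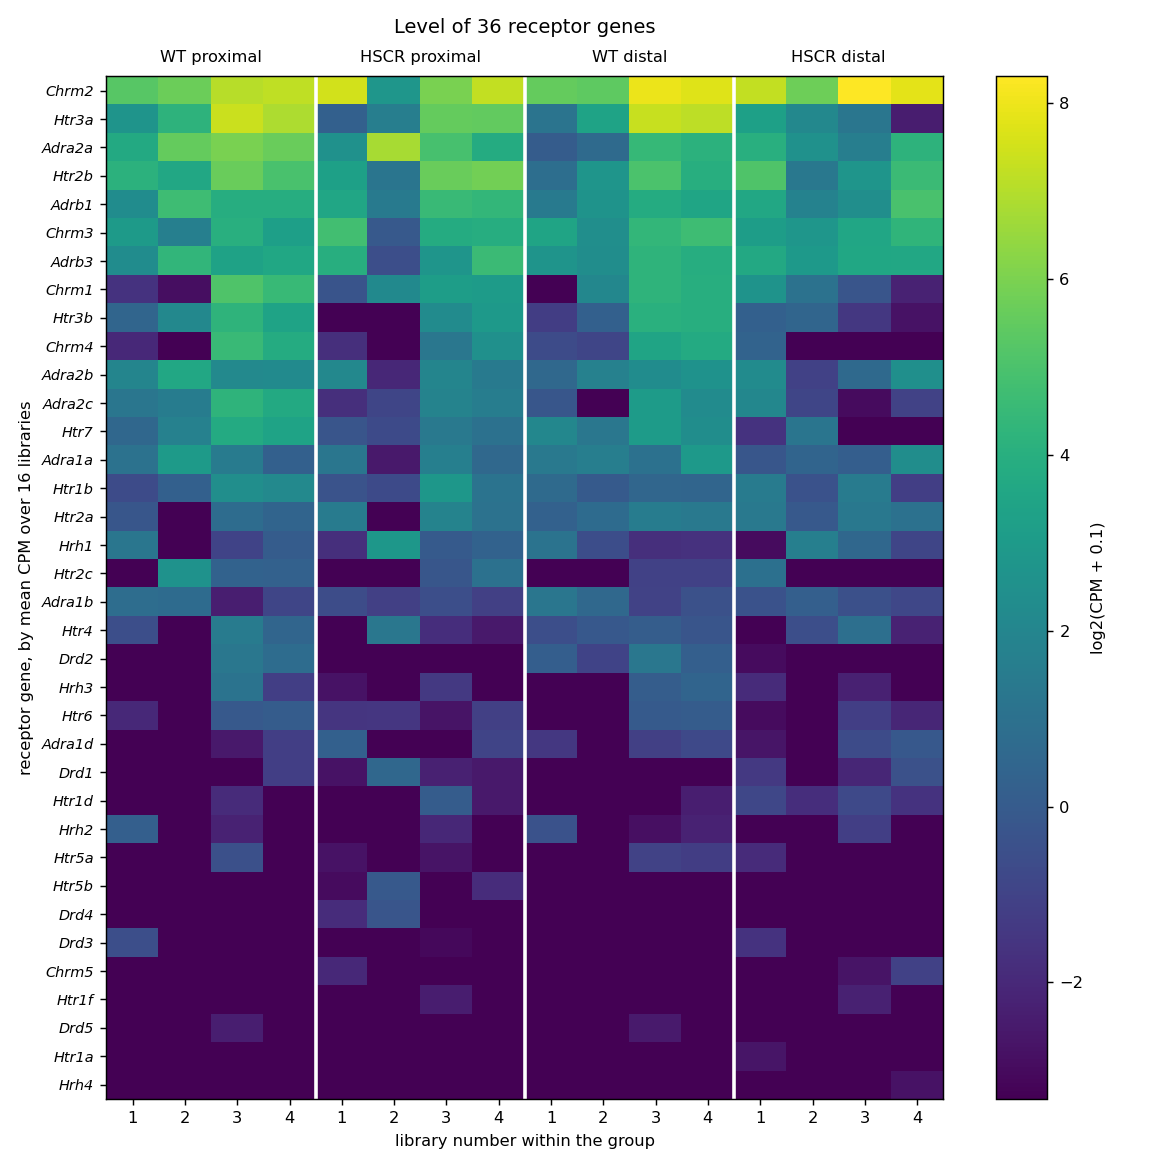
Level of 36 receptor genes (rows, ordered by mean CPM) in the 16 libraries (columns, numbered within each group), as log2(CPM + 0.1). Chrm2 is bright in nearly all columns, Htr3a, Htr3b and Chrm4 are bright mainly in libraries 3 and 4 of the WT and HSCR proximal groups, and the lower rows are near 0 in most libraries.

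Among the serotonin receptors, the channel subunits showed the widest range. Htr3a, which can form the channel alone, had 6.4, 18.1, 165 and 116 CPM in WT proximal libraries 1 to 4, 1.07, 2.99, 47.1 and 45.5 in HSCR proximal, 2.14, 10.6, 162 and 139 in WT distal and 9.52, 4.13, 2.29 and 0.0921 in HSCR distal. Libraries 3 and 4 were high in both WT groups and in HSCR proximal colon, while all 4 HSCR distal libraries lay under 10 CPM, so the HSCR and WT ranges overlapped in proximal colon through WT libraries 1 and 2 and in distal colon through WT library 1. Htr3b, a subunit that needs Htr3a to form a working channel, had 1.28, 4.2, 18.7 and 10.5 CPM in WT proximal libraries 1 to 4, 0, 0, 4.79 and 7.48 in HSCR proximal, 0.334, 1.09, 16.3 and 15.6 in WT distal and 1.09, 1.26, 0.27 and 0.0461 in HSCR distal. It followed the same libraries, with 0 counts in HSCR proximal 1 and 2. The ratio of Htr3a to Htr3b, on the FPKM scale, had a median of 7.99 in WT proximal, 10.8 in WT distal and 6.81 in HSCR distal libraries, and of 9.21 in the 2 HSCR proximal libraries in which Htr3b had counts.

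Htr7, a receptor that raises cyclic AMP and relaxes gut muscle, had 1.36, 3.39, 13.8 and 10.7 CPM in WT proximal libraries 1 to 4, 0.749, 0.511, 2.5 and 1.93 in HSCR proximal, 4.1, 2.36, 8.14 and 5.04 in WT distal and 0.229, 2.16, 0 and 0 in HSCR distal. In distal colon every HSCR library lay under every WT library, and in proximal colon the groups overlapped through WT library 1. Htr2b, a receptor coupled to calcium release, had 17.8, 12.2, 50.5 and 31.2 CPM in WT proximal libraries 1 to 4, 9.74, 2.15, 49.7 and 57 in HSCR proximal, 1.74, 6.54, 31.7 and 15.3 in WT distal and 34.6, 2.38, 6.5 and 24 in HSCR distal. Its groups overlapped throughout, and its mean was 27.9 ± 17 CPM in WT proximal and 29.6 ± 27.7 in HSCR proximal colon. Htr1b, an inhibitory receptor, had 0.527, 1.07, 5.19 and 4.32 CPM in WT proximal libraries 1 to 4, 0.674, 0.511, 6.92 and 2.08 in HSCR proximal, 1.53, 0.864, 1.34 and 1.29 in WT distal and 2.77, 0.669, 2.72 and 0.346 in HSCR distal.

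The other serotonin receptors were scarce. Htr2a reached at most 3.62 CPM, Htr2c 5.89, Htr4 2.75, Htr6 0.95, Htr1d 0.937, Htr5b 0.840 and Htr5a 0.617 in any library. Htr1f had counts in 2 libraries, with a maximum of 5, and Htr1a in 1 library, with 2 counts. Htr4, a receptor that promotes peristalsis and is known from enteric neurons, therefore gave at most 116 counts in a library.

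Drd2, the inhibitory dopamine receptor of nerve terminals, was rare but unequally spread. Its counts were 0, 0, 100 and 38 in WT proximal libraries 1 to 4, 0, 0, 0 and 0 in HSCR proximal, 30, 14, 120 and 44 in WT distal and 1, 0, 0 and 0 in HSCR distal. This corresponds to 0, 0, 2.37 and 1.64 CPM in WT proximal libraries 1 to 4, 0, 0, 0 and 0 in HSCR proximal, 1.0, 0.403, 2.37 and 1.03 in WT distal and 0.0286, 0, 0 and 0 in HSCR distal. In distal colon all 4 WT libraries held counts and 1 read in all was found over the 4 HSCR libraries, that read in the library labelled HSCR distal 1. In proximal colon the counts of WT came from libraries 3 and 4, and the 4 HSCR libraries had 0. With a floor of 3 counts per library, the ratio of the WT to the HSCR proximal mean came to 11.6. This ratio rests on WT proximal 3 and 4 and on the chosen floor, since WT proximal 1 and 2 also had 0 counts. Drd2 had too few counts to be tested in proximal colon. In distal colon the ratio of summed CPM of WT to HSCR was 188, with an exact 95% counting interval of 33.3 to 7443 that covers counting error only. The other dopamine receptors had at most 38 (Drd1), 20 (Drd4), 8 (Drd3) and 4 (Drd5) counts in a library, in 8, 2, 3 and 2 libraries.

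**Figure D2:**
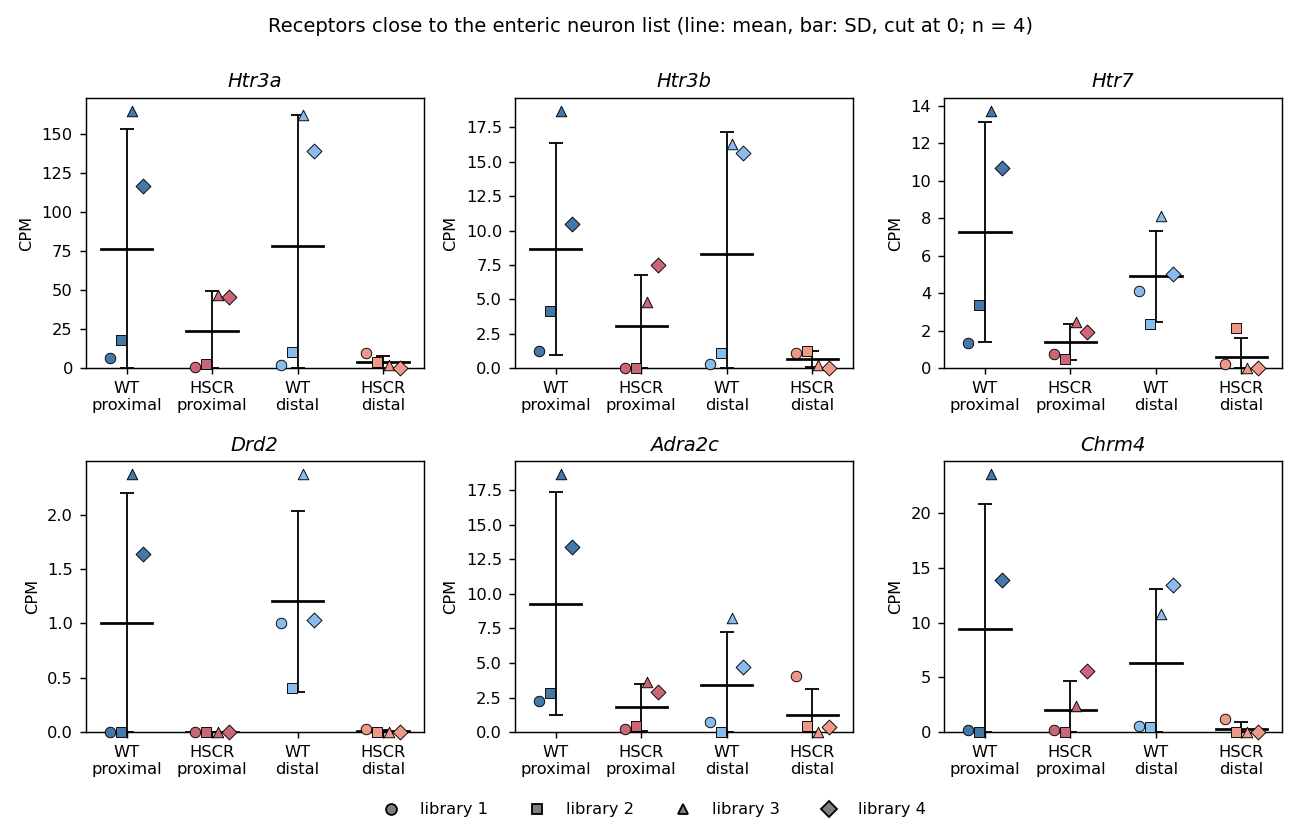
CPM of 6 receptors that kept a steadier ratio to neuron genes than to muscle genes, by group (point shapes: library 1 to 4, line: mean, bar: SD, n = 4). WT libraries 3 and 4 are the highest for Htr3a, Htr3b, Htr7, Adra2c and Chrm4, and Drd2 is at 0 in all HSCR proximal libraries.

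The alpha-adrenergic receptors differed among themselves. Adra2a, the alpha-2 receptor that restrains transmitter release from nerve endings, had 13.4, 47.2, 61.3 and 49.9 CPM in WT proximal libraries 1 to 4, 5.82, 109, 29.8 and 14.3 in HSCR proximal, 0.934, 1.5, 21.9 and 17.4 in WT distal and 16.2, 5.76, 2.99 and 18 in HSCR distal. The highest value of all was that of HSCR proximal 2, the library rich in epithelium genes, and the WT distal libraries 1 and 2 were the lowest. Adra2c, a related inhibitory receptor, had 2.26, 2.84, 18.6 and 13.4 CPM in WT proximal libraries 1 to 4, 0.20, 0.438, 3.6 and 2.9 in HSCR proximal, 0.767, 0, 8.24 and 4.72 in WT distal and 4.03, 0.446, 0.027 and 0.392 in HSCR distal. The WT proximal libraries 3 and 4 stood above all HSCR proximal libraries, while in distal colon the WT range of 0 to 8.24 CPM covered all 4 HSCR libraries.

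Adra2b, the third alpha-2 receptor, had 3.84, 12.4, 4.34 and 4.58 CPM in WT proximal libraries 1 to 4, 4.17, 0.146, 3.78 and 2.61 in HSCR proximal, 1.43, 3.31, 4.94 and 5.89 in WT distal and 4.74, 0.372, 1.48 and 5.44 in HSCR distal. Adra1a, an alpha-1 receptor coupled to smooth muscle contraction, had 1.96, 8.03, 2.77 and 1.08 CPM in WT proximal libraries 1 to 4, 2.3, 0.073, 3.1 and 1.43 in HSCR proximal, 2.54, 3.02, 1.9 and 7.46 in WT distal and 0.772, 1.23, 1.02 and 5.07 in HSCR distal. For both, the lowest library was HSCR proximal 2 and the groups overlapped in each segment. Adra1b reached at most 2.27 CPM and had counts in all 16 libraries, and Adra1d reached at most 1.10 CPM and had counts in 10.

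The beta-adrenergic receptors, which raise cyclic AMP and relax gut muscle, overlapped between the groups. Adrb1 had 4.9, 26, 15 and 14.9 CPM in WT proximal libraries 1 to 4, 11.6, 2.59, 23.7 and 20.5 in HSCR proximal, 2.57, 6.14, 14.1 and 11.3 in WT distal and 12.5, 3.42, 5.18 and 31.1 in HSCR distal. Adrb3, known from fat cells and gut muscle, had 4.9, 20.2, 10.4 and 12 CPM in WT proximal libraries 1 to 4, 15.5, 0.584, 6.57 and 23.8 in HSCR proximal, 6.41, 5.07, 18.6 and 15.2 in WT distal and 12.8, 7.7, 12 and 12.6 in HSCR distal. The group means of Adrb3 were 11.9 ± 6.34 CPM in WT proximal, 11.6 ± 10.2 in HSCR proximal, 11.3 ± 6.61 in WT distal and 11.3 ± 2.40 in HSCR distal colon.

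Chrm2 and Chrm3 are the muscarinic receptors of gut smooth muscle, Chrm3 coupled to calcium release and contraction and Chrm2 to inhibition of cyclic AMP. Chrm2 had 38.3, 50.8, 133 and 146 CPM in WT proximal libraries 1 to 4, 184, 6.68, 62.5 and 151 in HSCR proximal, 47.2, 43.2, 248 and 214 in WT distal and 150, 53.2, 315 and 223 in HSCR distal. Chrm3 had 7.98, 3.13, 16.2 and 9.41 CPM in WT proximal libraries 1 to 4, 27.7, 0.84, 14 and 15 in HSCR proximal, 11, 5.19, 20.4 and 25.9 in WT distal and 8.83, 6.77, 11.8 and 19.3 in HSCR distal. The lowest library for both was HSCR proximal 2, in which the muscle genes were also lowest, and HSCR and WT libraries overlapped in both segments. On the FPKM scale Chrm2 exceeded Chrm3 in every library, with a median ratio of 12.2 in WT proximal, 7.54 in HSCR proximal, 8.57 in WT distal and 14.7 in HSCR distal colon and a range of 4.45 to 27.6 over the 16 libraries.

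Chrm1 and Chrm4 were high in few libraries. Chrm1, the muscarinic receptor that depolarizes neurons, had 0.226, 0.0368, 34.5 and 22.6 CPM in WT proximal libraries 1 to 4, 0.699, 4.45, 8.81 and 8.19 in HSCR proximal, 0, 4.09, 18.6 and 15.6 in WT distal and 6.17, 2.01, 0.728 and 0.115 in HSCR distal. Chrm4, an inhibitory muscarinic receptor, had 0.151, 0, 23.6 and 13.9 CPM in WT proximal libraries 1 to 4, 0.20, 0, 2.37 and 5.62 in HSCR proximal, 0.534, 0.432, 10.8 and 13.5 in WT distal and 1.2, 0, 0 and 0 in HSCR distal. Within WT, libraries 3 and 4 exceeded libraries 1 and 2 for both genes, and Chrm4 had 0 counts in HSCR distal 2 to 4 while the library labelled HSCR distal 1 held 42. Chrm5 had counts in 3 libraries, with a maximum of 16.

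**Figure D3:**
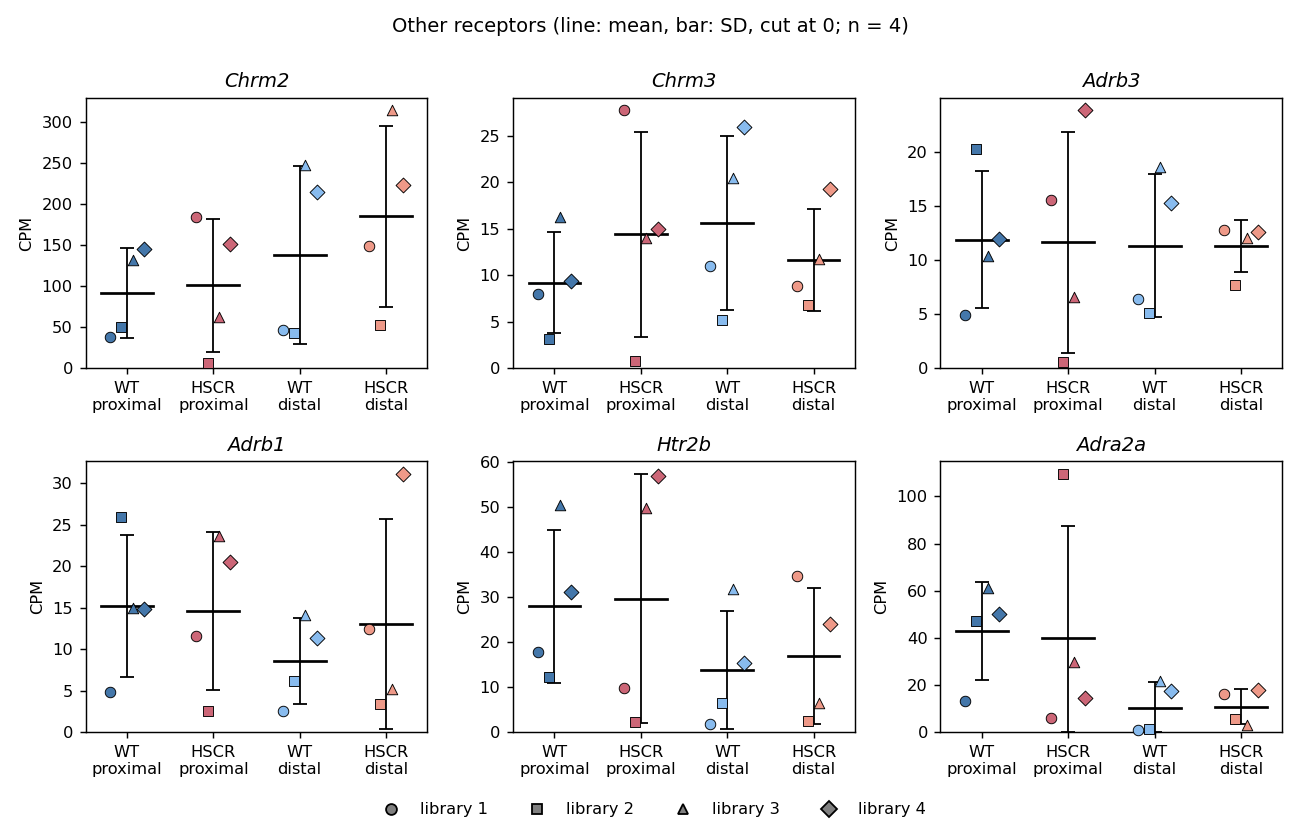
CPM of 6 other receptors by group (point shapes: library 1 to 4, line: mean, bar: SD, n = 4). The groups overlap in each panel, HSCR proximal 2 is the lowest library for Chrm2, Chrm3 and Adrb3, and it is the highest for Adra2a.

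The histamine receptors were low. Hrh1, the receptor coupled to muscle contraction, had counts in 15 libraries and reached 6.97 CPM in HSCR proximal 2, the library rich in epithelium genes. Hrh3, an inhibitory receptor of nerve endings, had counts in 8 libraries, with at most 87 counts, in WT proximal 3. Hrh2 reached 20 counts and Hrh4 had 2 counts in a single library.

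The first comparison asked how receptor levels of the ganglionic proximal colon of HSCR mice differed from WT. Of the 21 receptors with enough counts for the test, 16 had lower and 5 higher values in HSCR, where 46.8% of all genes had lower values. The median log2 fold change was -0.93, against 0.04 for all 16664 genes tested. It was -0.09 without WT proximal 3, -0.33 without WT proximal 2, -0.48 without the library labelled HSCR proximal 1 and -1.13 without HSCR proximal 3. None passed an adjusted p under 0.05 with a fold change beyond 2 (the quasi-likelihood test of edgeR, adjusted by Benjamini and Hochberg), where 0.0% of all genes did, and the smallest adjusted p of a receptor was 0.747. At an unadjusted p under 0.05 there was 1 of 21, against 6.62% of all genes. DESeq2 called 0 receptors at the same thresholds, against 1.11% of all genes, and the study's own kind of fit (edgeR with 4 RUVr factors and a likelihood ratio test) called 5, namely Htr3a, Htr3b, Adra2c, Adra2b and Htr7, all lower, against 15.6% of all genes.

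Htr7 was the receptor at an unadjusted p under 0.05 in proximal colon, with 7.29 ± 5.88 CPM in WT and 1.42 ± 0.948 CPM in HSCR (log2 fold change -2.39, SE 0.86, adjusted p = 0.747 by edgeR). It was lower in HSCR within both series of library names, with differences of -1.77 in libraries 1 and 2 and -2.46 in libraries 3 and 4. Its unadjusted p was over 0.05 without the library labelled HSCR proximal 1 (-2.15), WT proximal 3 (-1.88) or WT proximal 4 (-2.15). The same held with all 16 libraries in 1 fit (-2.35).

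9 of the 21 receptors had a log2 fold change under -1 in proximal colon, against 10.1% of all genes, and 2 had one over 1 (Hrh1 and Htr2a), against 10.4% of all genes. The 9 were Adra1a, Adra2b, Adra2c, Chrm1, Chrm4, Htr2c, Htr3a, Htr3b and Htr7. Htr3a and Adra2c were lower in HSCR within both series, with differences of -2.57 and -1.58 for Htr3a and of -3.03 and -2.29 for Adra2c. Htr3b was lower too, with 0 counts in HSCR proximal 1 and 2 and a difference of -1.22 in libraries 3 and 4. With the series as a term in the fit, 4 receptors had an unadjusted p under 0.05, which were Htr3a (-2.12, adjusted p = 0.154), Htr3b (-3.67, adjusted p = 0.515), Adra2c (-2.66, adjusted p = 0.107) and Htr7 (-2.22, adjusted p = 0.171 by edgeR). Without the library labelled HSCR proximal 1 no receptor had an unadjusted p under 0.05.

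The muscle receptors Chrm2 and Chrm3 overlapped between the genotypes in proximal colon. Chrm2 stood at 91.8 ± 55.0 CPM in WT and 101 ± 81.2 in HSCR (log2 fold change 0.11, SE 0.84, adjusted p = 0.988 by edgeR). Its direction turned to -0.32 without the library labelled HSCR proximal 1, and it was 0.50 without HSCR proximal 2. Chrm3 stood at 9.19 ± 5.41 CPM in WT and 14.4 ± 11.0 in HSCR (0.62, SE 0.85, adjusted p = 0.889). The Chrm3 value was 0.11 without the library labelled HSCR proximal 1, 1.02 without HSCR proximal 2 and 1.06 without WT proximal 3.

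Other measures of the same proximal libraries are given beside these results. Mitochondrial genes took 7.31% to 49.8% of the counts in WT and 5.56% to 20.1% in HSCR. The 8 enteric glia genes had means of 4.82 to 5.86 log2 CPM in WT and 2.62 to 4.61 in HSCR (difference -1.68, p = 0.0286 by an exact two-sided permutation test, the smallest p that 4 against 4 libraries allow, adjusted p = 0.286 over 20 list tests). The 8 adipocyte genes had means of 1.06 to 4.30 in WT and -2.54 to 0.48 in HSCR (-3.24, p = 0.0286 by the same exact test, adjusted p = 0.286), with up to 5 of 8 genes at 0 in a HSCR library. The 12 epithelium genes ranged from -3.58 to 6.57 in WT, with up to 6 of 12 at 0, and from 2.51 to 9.26 in HSCR. The neuron genes differed by -2.21 (exact permutation p = 0.2). Their part in the receptor differences was not tested.

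The second comparison set the distal colon of HSCR mice, the aganglionic segment of the model, against WT distal colon. Of 22 receptors tested, 14 had lower and 8 higher values in HSCR, where 46.1% of all genes had lower values. The median was -0.39 against 0.04 for all 17059 genes, and it was -0.12 without WT distal 4, -0.20 without HSCR distal 3 and -0.23 without WT distal 3. None was called by edgeR, where 0.0% of all genes were. At an unadjusted p under 0.05 there were 3 of 22, all lower in HSCR, against 2.64% of all genes. They were Drd2, Htr3a and Htr3b. Drd2, Chrm4 and Htr7 passed the filter on low counts through the WT libraries, where they were high, so the filter fixed their direction. Their place in the counts of lower receptors, and of receptors called after this filter, carries no support. 7 of 22 had a log2 fold change under -1, against 7.7% of all genes, and these were Adra2c, Chrm1, Chrm4, Drd2, Htr3a, Htr3b and Htr7, while 0 had one over 1, against 8.15% of all genes. All 7 were lower within libraries 3 and 4. Within libraries 1 and 2 Chrm4, Drd2 and Htr7 were lower, but Chrm1 (3.86), Adra2c (3.69), Htr3b (0.93) and Htr3a (0.40) were higher in HSCR. DESeq2 called 1 receptor, Drd2 (adjusted p = 0.00489), against 0.13% of all genes, and the fit with RUVr factors called 5, namely Drd2, Chrm4, Htr7, Htr3a and Htr3b, against 6.91% of all genes.

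Drd2 had the lowest p of the receptors in distal colon (fitted log2 fold change -6.88, SE 1.29, adjusted p = 1.00 by edgeR). The fitted value depends on the prior count, since HSCR held a single read. Its WT and HSCR libraries did not overlap, which held for 2 receptors, Drd2 and Htr7, and for 1.04% of all genes in that direction. Drd2 was lower in HSCR within both series. Drd2 stayed at an unadjusted p under 0.05 when any 1 library was left out, with adjusted p-values of 0.813 to 1.00 (edgeR). Since the count filter fixed the direction of Drd2 and Htr7, these values describe their counts and carry no support.

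Htr3a stood at 78.4 ± 83.7 CPM in WT distal and 4.01 ± 4.03 in HSCR distal colon (log2 fold change -4.32, SE 1.53, adjusted p = 1.00 by edgeR). Htr3b stood at 8.33 ± 8.80 CPM in WT and 0.667 ± 0.599 in HSCR (-3.67, SE 1.40, adjusted p = 1.00). Both differences rested on libraries 3 and 4, since within libraries 1 and 2 the differences were 0.40 for Htr3a and 0.93 for Htr3b and within libraries 3 and 4 they were -8.24 and -6.93, where HSCR distal 4 held 4 and 2 counts. With the series as a term neither kept an unadjusted p under 0.05 (-3.43 for Htr3a and -2.91 for Htr3b). Htr7 was lower within both series, with a difference of -2.11 in libraries 1 and 2 and 0 counts in HSCR distal 3 and 4, and had a log2 fold change of -3.06 (SE 1.58) with an unadjusted p over 0.05 in the fit of all 8 libraries. The library labelled HSCR distal 1 had a neuron gene mean of 6.34, within the WT distal range, and without it 4 receptors had an unadjusted p under 0.05, which were Htr3a (-5.23), Htr3b (-4.04), Chrm4 and Drd2, with adjusted p-values of 0.813 to 0.918 (edgeR). The distal direction of Chrm4, Drd2 and Htr7 was fixed by the count filter.

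Chrm2 stood at 138 ± 108 CPM in WT and 185 ± 111 in HSCR distal colon (0.37, SE 0.70, adjusted p = 1.00). Chrm3 stood at 15.6 ± 9.31 CPM in WT and 11.7 ± 5.49 in HSCR distal colon (-0.46, SE 0.55, adjusted p = 1.00). Within the series Chrm2 differed by 0.98 and 0.20, and Chrm3 by 0.03 and -0.61. The smooth muscle genes differed by 0.21 (exact permutation p = 0.629) and the neuron genes by -2.66 (exact permutation p = 0.171).

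**Figure D4:**
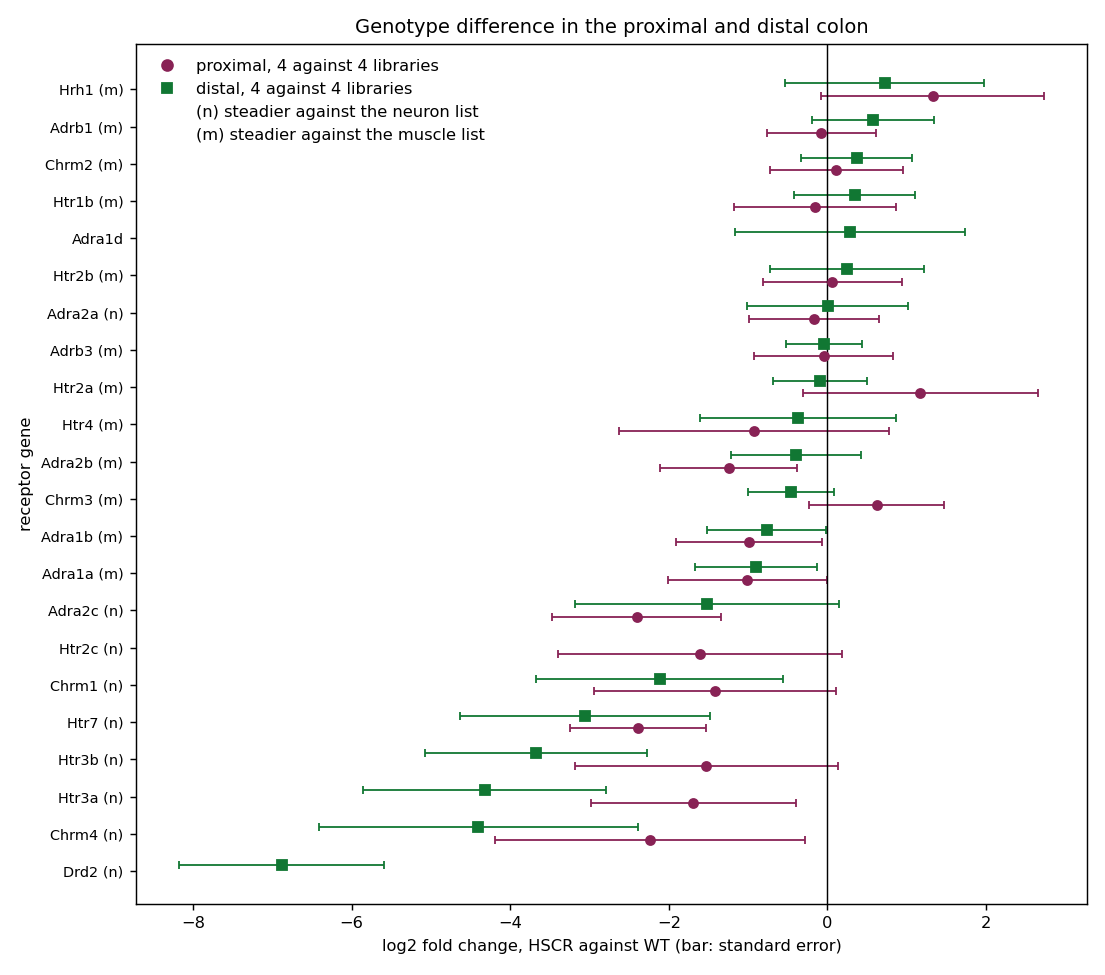
Log2 fold change of HSCR against WT in proximal (circles) and distal (squares) colon for receptors tested in at least 1 of them, with standard errors from edgeR. Receptors marked (n) were steadier against the neuron genes and those marked (m) against the muscle genes. Drd2, Chrm4, Htr3a, Htr3b and Htr7 lie farthest to the left in distal colon, and Chrm2 and Chrm3 lie within 1 log2 unit of 0 in both segments.

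Normal regional differences were read from WT distal against WT proximal colon, which shares its libraries with the comparisons above. Of 23 receptors tested, 15 had lower and 8 higher values in distal colon, with a median of -0.21 against 0.03 for all genes, of which 48.3% had lower values. The receptor median turned to 0.05 without WT proximal 3, to 0.21 without WT distal 2 and to 0.13 with RUVr factors. 4 receptors had a log2 fold change under -1 (Adra2a, Adra2c, Htr1b and Htr2c), against 7.26% of all genes, and 1 had one over 1 (Htr2a), against 6.34%. None was called by edgeR, against 0.0181% of all genes, 0 had an unadjusted p under 0.05, against 5.23% of all genes, and DESeq2 called 0, against 0.325% of all genes. The fit with RUVr factors called 5, Adra2a and Drd2 among them, against 10.5% of all genes. Adra2a had the smallest p, with 43.0 ± 20.6 CPM in proximal and 10.4 ± 10.8 in distal colon (-2.02, SE 0.95, adjusted p = 0.906 by edgeR), and it was lower in distal colon within both series, with differences of -4.39 and -1.50. With the series as a term Adra2a had an unadjusted p under 0.05 (-2.99, adjusted p = 0.356). In libraries 3 and 4 the name style differed between the WT segments, CM in proximal and LC in distal colon. The series does not separate this from the segment. Chrm2 differed by 0.61 (SE 0.67, adjusted p = 0.936), Chrm3 by 0.78 (SE 0.60, adjusted p = 0.920) and Drd2 by 0.27 (SE 1.48, adjusted p = 0.989).

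In HSCR mice, distal against proximal colon gave lower values for 14 and higher for 5 of 19 receptors, with a median of -0.34 against -0.04 for all genes, of which 52.9% had lower values. When 1 library was left out the receptor median ran from -0.66 without the library labelled HSCR proximal 1 to -0.12 without HSCR distal 2. 5 had a log2 fold change under -1 (Adra2a, Chrm1, Htr3a, Htr3b and Htr7), against 7.61% of all genes, and 0 had one over 1, against 4.4%. None was called by edgeR, against 0.0% of all genes, 0 had an unadjusted p under 0.05, against 1.49% of all genes. DESeq2 called 0, against 0.0297% of all genes, and the fit with RUVr factors called 0, against 1.57%. Between the segments of HSCR mice Chrm2 differed by 0.82 (SE 0.87, adjusted p = 1.00) and Chrm3 by -0.34 (SE 0.81, adjusted p = 1.00), and Drd2 was too low to test. This comparison holds the libraries labelled HSCR proximal 1 and HSCR distal 1, whose Hoxd13 went against the label. It also holds HSCR distal 4, whose Hoxd13 of 14.1 CPM lay within the WT proximal range. Without HSCR proximal 1 and HSCR distal 1, but with HSCR distal 4 kept, 3 named receptors were lower in distal colon at an unadjusted p under 0.05. They were Htr3a (-3.92), Adra2a (-2.48) and Chrm1 (-2.93), each with an adjusted p of 0.920 (edgeR).

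Whether the genotype difference itself differed between segments was tested with all 16 libraries in 1 model. None of 25 receptors was called, against 0.0% of all genes, 0 had an unadjusted p under 0.05, against 1.44% of all genes, and DESeq2 called 0, against 0.0325% of all genes. The difference was under 0 for 11 of 25, against 53.3% of all genes, under -1 for 6, against 13.4%, and over 1 for 2, against 9.42%. The distal minus proximal difference of the genotype effect was 0.28 for Chrm2 (SE 1.16), -1.07 for Chrm3 (SE 1.06) and 1.32 for Drd2 (SE 1.45), each with an adjusted p of 1.00 (edgeR). The Drd2 value turned to -0.27 without the libraries labelled HSCR proximal 1 and HSCR distal 1, and with HSCR at 0 or 1 read it has little meaning as a size. The fit with RUVr factors called 1 receptor, Chrm4, against 0.634% of all genes.

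To separate the receptors of nerve from those of muscle, part of them were first placed by their known main site and the others left out. These lists were drawn up with earlier results of these data known. Of 9 receptors known mainly from nerve (Drd2, Htr3a, Htr3b, Htr4, Htr1a, Adra2a, Adra2c, Chrm1 and Hrh3), 6 could be tested in proximal colon and all 6 had lower values in HSCR, with a median of -1.47. Of these 6, 0 had an unadjusted p under 0.05 (edgeR). Within proximal libraries 1 and 2 Chrm1 was higher in HSCR (4.01, with 3 and 1 counts in WT) and Adra2a differed by 0.01. Htr3a, Htr3b and Adra2c were lower there, and within libraries 3 and 4 all of these were lower. Htr4 was not compared by series. In distal colon 6 of 7 had lower values, with a median of -2.11, Drd2 among them with its direction fixed by the count filter, and Adra2a was at 0.00. Within distal libraries 1 and 2, Chrm1 (3.86), Adra2c (3.69), Adra2a (3.01), Htr3b (0.93) and Htr3a (0.40) were higher in HSCR and Drd2 was lower. Within distal libraries 3 and 4 each of them was lower. Of 9 receptors known mainly from muscle (Chrm2, Chrm3, Htr2a, Htr2b, Adra1a, Adra1b, Adra1d and Hrh1 among them), 3 had lower and 5 higher values in proximal colon, with a median of 0.09, and 4 had lower and 5 higher values in distal colon, with a median of 0.25. For all genes, 46.8% had lower values in proximal and 46.1% in distal colon. Htr7, Adrb1 and Adrb3, also described above as acting on or known from gut muscle, were in neither list. Their proximal and distal values were -2.39 and -3.06 for Htr7, -0.08 and 0.58 for Adrb1, and -0.05 and -0.04 for Adrb3. The distal direction of Htr7 was fixed by the count filter.

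The same separation was drawn from the libraries without use of the groups. For each of the 22 receptors with a mean of at least 0.5 CPM, the SD over the 16 libraries was taken of its log2 CPM minus the mean of the neuron genes, and likewise minus the mean of the muscle genes, so that a small SD marks a steady ratio. 9 receptors were steadier against the neuron genes, namely Htr3a, Htr2c, Htr3b, Chrm4, Htr7, Adra2c, Chrm1, Drd2 and Adra2a, and 13 against the muscle genes. Of 16608 genes outside the lists, 4.49% were steadier against the neuron genes, so the muscle side is where most genes lie. Of the receptors known from nerve, 6 of 7 lay on the neuron side, with Htr4 as the exception, and of those known from muscle 0 of 8 did. The SDs come from the same 16 libraries as the group comparisons, and the lists were drawn up with earlier results known. This is therefore a description and no independent check.

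Htr3a was the steadiest against the neuron genes, with an SD of 1.15 log2 units against 2.97 to the muscle genes, and 0.650% of all genes had a smaller SD to the neuron genes. Adrb3 (0.52), Chrm3 (0.59) and Chrm2 (0.63) were the steadiest against the muscle genes, where 0.548%, 1.26% and 1.77% of all genes had a smaller SD, and their SDs to the neuron genes were 2.40, 2.62 and 2.69. Adra2a lay between the sides (2.32 to neuron and 2.34 to muscle genes). Drd2 (2.96 and 3.12) did too, and it moved to the muscle side with a prior count of 2 in place of 0.5 in log2 CPM. Hrh1 (3.99 and 2.85) and Htr4 (3.63 and 3.05) were steady against neither. Htr7 and Chrm4, which were in neither list of known sites, lay on the neuron side, and Adrb3, Adrb1, Adra2b and Htr1b on the muscle side.

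**Figure D5:**
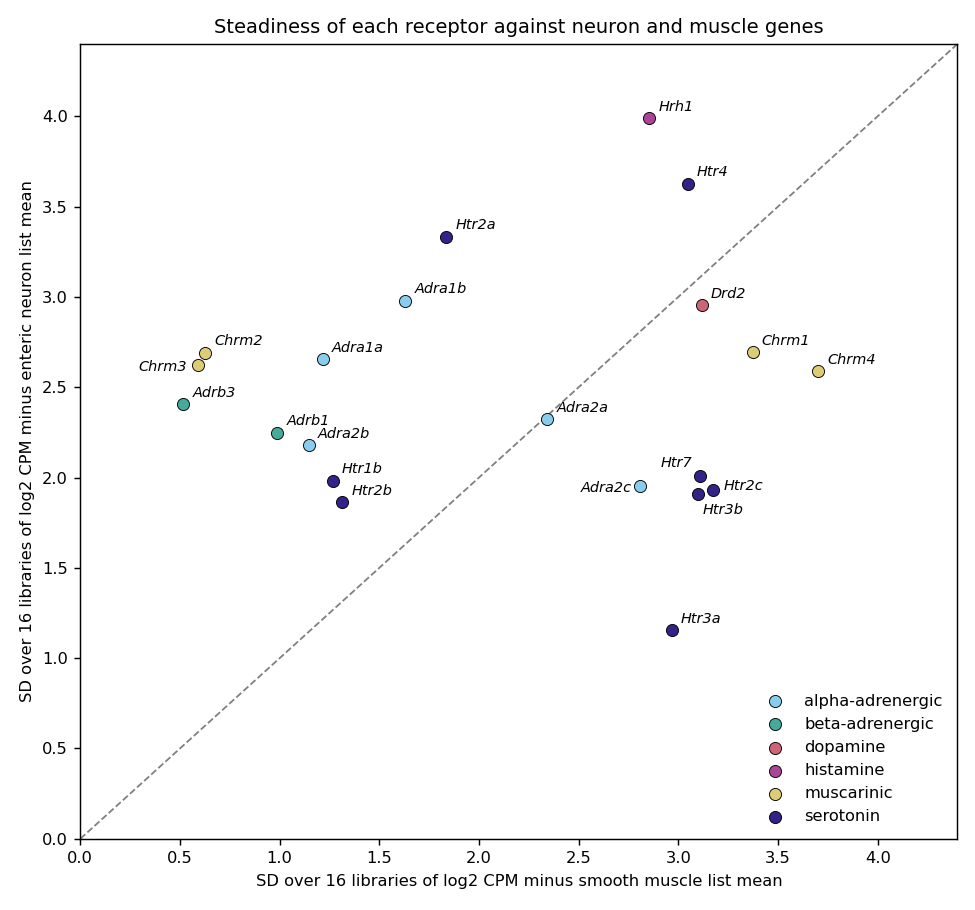
SD over 16 libraries of log2 CPM minus the mean of 11 smooth muscle genes (x axis) and minus the mean of 17 enteric neuron genes (y axis), in log2 units, for 21 receptors coloured by family. Points under the dashed line of equal SDs were steadier against the neuron genes, with Htr3a lowest at 1.15, and Adrb3, Chrm3 and Chrm2 lie at the left edge at 0.52 to 0.63.

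Genes whose log2 CPM was most like that of Drd2 and Chrm3 over the 16 libraries were listed from 18618 genes. For Chrm3 they were Timp3 (Pearson's r = 0.947), Dcbld2 (0.944), Tln1 (0.943), Adamts2 (0.941) and Vcl (0.934). For Drd2 they were Kcns2 (0.925), 9430021M05Rik (0.861), 4930448E22Rik (0.830), Crybb2 (0.819) and Dnaja1 (0.801), of which the first 4 had means under 0.6 CPM. The libraries share tissue makeup and depth, and these values are descriptions.

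The enzymes and transporters that make and clear the ligands were read from a list of 20 genes. None passed the adjusted test in any comparison (edgeR). In proximal colon 3 of 16 tested had lower and 1 higher values in HSCR at an unadjusted p under 0.05, where 6.62% of all genes had such a p. Slc5a7, the choline transporter of cholinergic nerve endings, stood at 47.5 ± 43.5 CPM in WT and 3.81 ± 3.84 in HSCR (-3.67, adjusted p = 0.718), and Slc18a3, which loads acetylcholine into vesicles, at 53.8 ± 51.3 and 3.61 ± 3.83 CPM (-3.93, adjusted p = 0.747). Ddc, which makes serotonin and dopamine from their precursors, stood at 9.70 ± 3.24 CPM in WT and 22.8 ± 15.2 in HSCR (1.19, adjusted p = 0.747). In distal colon 0 of 15 were lower and 1 was higher at this threshold, which 2.64% of all genes passed. It was Maob, a monoamine-degrading enzyme, with 24.6 ± 7.24 CPM in WT and 49.3 ± 28.9 in HSCR (0.98, adjusted p = 1.00).

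Of 46 G proteins and effectors of these receptors, 44 were tested in proximal colon and 3 had lower and 0 higher values in HSCR at an unadjusted p under 0.05, a share near the 6.62% of all genes. In distal colon 5 of 44 were lower and 2 higher, against 2.64% of all genes, and 0 passed the adjusted test in either segment (edgeR). Grk3, a kinase that desensitizes such receptors, stood at 59.2 ± 32.3 CPM in WT and 14.8 ± 11.8 in HSCR proximal colon (-2.03, adjusted p = 0.747), and at 48.7 ± 41.9 and 9.53 ± 6.13 CPM in distal colon (-2.39, adjusted p = 1.00). Rgs7, a brake on inhibitory G proteins in neurons, stood at 9.65 ± 4.50 CPM in WT and 3.57 ± 1.84 in HSCR proximal colon (-1.46, adjusted p = 0.747), and at 9.76 ± 1.10 and 3.62 ± 2.28 CPM in distal colon (-1.44, adjusted p = 1.00). In WT mice Rgs2, a brake on the G protein of Chrm3 and known from smooth muscle, stood at 277 ± 31.3 CPM in proximal and 107 ± 30.8 in distal colon (-1.34, adjusted p = 0.788). In distal colon Rgs2 stood at 255 ± 141 CPM in HSCR (1.22 against WT, adjusted p = 1.00).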

How the data were processed

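Total RNA of microdissected LMMP from 16 colon pieces was sequenced as poly-A libraries. The deposited gene counts were made by the authors with HISAT2 2.2.1 and featureCounts 2.0.6 on mm39 with a GENCODE gene model whose release is not given in the sources used here, and the strand setting is not given either, so reads of overlapping antisense genes may be included. The deposited FPKM values of the authors equal these counts per gene length times 1 constant per library, and served to compare receptors with each other. The authors' group means, fold changes and p-values, and a list file of their proximal comparison, were not used. Depth was 21384372 to 45831881 counts per library, and intervals cover counting error only.

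Groups were taken from the sample titles. CPM was computed on TMM-scaled library sizes, and log2 CPM with a prior count of 0.5. Each comparison of 8 libraries, and the difference of the genotype effect over all 16, was fitted on all genes that passed filterByExpr with edgeR 4.0.16 (glmQLFit and glmQLFTest, limma 3.58.1, R 4.3.3), and called at a Benjamini-Hochberg adjusted p under 0.05 with a fold change beyond 2. Gene lists were compared by exact two-sided permutation tests of their mean log2 CPM. Alternatives were DESeq2 1.42.0, other size factors, edgeR with 4 RUVr factors and a likelihood ratio test (the kind of fit named in the study's methods, with factors computed here from deviance residuals), no count filter, all libraries in 1 fit, mitochondrial genes left out, a replicate block, the library name series as a term, a lower fold threshold of 1.5, a prior count of 2, and libraries left out. The edgeR fit of the proximal comparison was tested on simulated data. It had to succeed only at a spread well under that of these libraries. That test does not show which changes can be detected here. Plots were drawn with matplotlib 3.10.9, exact tests run with scipy 1.17.1 and tables handled in pandas 2.3.3 under Python 3.11.15.

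Values in every library are given for Drd2, Chrm2, Chrm3 and each receptor with a mean of at least 2 CPM or an unadjusted p under 0.05 in a comparison of 2 groups. Fold changes with SE and p are given for Drd2, Chrm2 and Chrm3 and for receptors at an unadjusted p under 0.05, and values of others were added after they were seen. The values of 1 receptor that enters the counts are not reported here. From each of the 2 pathway lists the 3 genes with the smallest p were eligible, and the 5 genes most alike by Pearson's r. The receptors and lists were chosen with earlier results of these data known.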

Additional observations from a re-analysis of the deposited data

Results flagged for a closer look

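Of 66 sets of 4 libraries examined for the receptors given in every library, 4 held a value far from the other 3, where chance flags about 1 in 20. Adra2b stood at 12.4 CPM in WT proximal 2 against 3.84 to 4.58 CPM in the other WT proximal libraries, and at 0.146 CPM in HSCR proximal 2 against 2.61 to 4.17 CPM in the other HSCR proximal libraries. Adrb3 stood at 7.70 CPM in HSCR distal 2 against 12 to 12.8 CPM in the other HSCR distal libraries. Chrm4 stood at 1.20 CPM in the library labelled HSCR distal 1 and at 0 in the other 3 HSCR distal libraries. HSCR proximal 2 is the library with the fewest smooth muscle and the most epithelium transcripts, and HSCR distal 1 the one whose Hoxd13 and Ednrb go against its label. Their part in these values was not tested.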

How the results depend on the processing

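The values below are in the order proximal genotype, distal genotype, WT segments, HSCR segments and difference of the genotype effect. DESeq2 called 181, 22, 48, 5 and 6 genes and the fit with RUVr factors 2601, 1179, 1744, 268 and 118, against 0, 0, 3, 0 and 0. With the series term 4 genes were called in proximal colon, and in the WT segments 0 with all libraries in 1 fit, 1 with the replicate block and 0 to 2 when 1 library was left out. Receptors called numbered 5, 5, 5, 0 and 1 with RUVr factors and 0, 1, 0, 0 and 0 with DESeq2, against 0 in each.

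Receptors at an unadjusted p under 0.05 numbered 1, 3, 0, 0 and 0. In proximal colon the number was 2 with DESeq2 or RLE size factors, 9 with RUVr factors, 4 with no count filter or with the series term, 3 with the replicate block, 0 without the 2 libraries in doubt and 0 to 2 on leaving out 1 library, with 0 when it was WT proximal 3, WT proximal 4 or HSCR proximal 1. In distal colon it was 5 with DESeq2 or no filter, 8 with RUVr factors, and 1 (Drd2) with the replicate block or the series term. Leaving out WT distal 3, WT distal 4 or HSCR distal 3 left Htr3b over 0.05. In the WT segments it was 1 with DESeq2 or no filter, 10 with RUVr factors, 2 with the block or series term and 0 to 2 on leaving out 1 library. In the HSCR segments it was 3 with DESeq2 or no filter, 2 with RUVr factors, 4 without the libraries in doubt and 0 to 2 on leaving out 1 library. For the difference of effects it was 2 with RUVr factors, 1 with no filter, 1 (Chrm4) without the libraries in doubt and 0 to 1 on leaving out 1 library.

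Directions turned in the following cases. The receptor median, -0.21 between WT segments, was 0.13 with RUVr factors and -0.65 to 0.21 on leaving out 1 library. For the difference of effects it was 0.12, with -0.06 with RUVr factors, -0.47 without the libraries in doubt and -0.40 to 0.46 on leaving out 1 library. Chrm2 in proximal colon was -0.31 with RUVr factors, -0.48 with the replicate block, -0.32 without the libraries in doubt and -0.32 to 0.50 on leaving out 1 library. Chrm3 between HSCR segments was 0.24, 0.23 and 0.29 under the same 3 settings and -0.73 to 0.18 on leaving out 1 library. The Drd2 difference of effects was -0.64 with RUVr factors, -0.27 without the libraries in doubt and -0.27 to 1.86 on leaving out 1 library, that of Chrm2 -0.15 to 0.74, and Drd2 between WT segments -0.32 to 1.14. On leaving out 1 library the smooth muscle mean ran from -0.98 to 0.44 in proximal colon, -0.24 to 0.18 between WT segments and -0.25 to 1.17 between HSCR segments, the adipocyte mean from -0.74 to 1.52 in distal colon and the epithelium mean from -2.18 to 0.069 between HSCR segments. The causes were not tested. With no count filter the median over all genes moved from 0.04 to 0.19 in proximal colon, where Htr7, Htr3a and Htr3b kept their direction, and by under 0.15 elsewhere. Replicate numbers were not taken to pair the libraries, since in no comparison did every same-numbered pair correlate above 0.1 (-0.11 to 0.30, -0.24 to 0.45, 0.09 to 0.45 and 0.01 to 0.41 in the 4 comparisons). Of 4 libraries 1, 1, 3 and 2 correlated best with their own number, a hint of pairing between the WT segments, and the library names of replicates 1 and 2 share numbers across the groups. 13 of 37 receptors had too few counts to be tested in any comparison of 2 groups.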

Other observations

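Among the regulators of these receptors, Rgs2, Rgs5 and Plcb4 had the smallest p-values between the segments of WT mice. Rgs5, a brake on G proteins known from vascular and other muscle cells, had a log2 fold change of -1.66 (SE 0.37, adjusted p = 0.835 by edgeR) in distal against proximal colon. Plcb4, a phospholipase downstream of such receptors, had one of 1.36 (SE 0.33, adjusted p = 0.893). In distal against proximal colon of HSCR mice, Kcnj3, a potassium channel subunit opened by inhibitory receptors, stood at 2.29 ± 2.04 CPM in proximal and 0.156 ± 0.278 CPM in distal colon (-3.86, SE 1.59, adjusted p = 1.00 by edgeR). Arrb2, which uncouples and internalizes activated receptors, stood at 21.1 CPM in WT and 13.8 CPM in HSCR proximal colon (-0.64, SE 0.25, adjusted p = 0.747 by edgeR).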
